A study of Mus musculus with 20 samples.

Results

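Among the genes measured in whole mouse retinas were 10 transcription factors that are known for their roles in endothelial cells. They are the ETS factors *Erg*, *Fli1* and *Ets1*, the SOXF factors *Sox7*, *Sox17* and *Sox18*, the partners *Tal1* and *Gata2*, and the Krüppel-like factors *Klf2* and *Klf4*. They were taken by gene symbol and not by a cutoff on a measured value, but with earlier results of these data known. All 10 were found among the 18754 genes that the 4 deposited tables list in common, and all 10 passed the filter on low values, a mean above 0.1 FPKM (fragments scaled by transcript length and library depth), in both experiments.

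Bulk RNA-Seq was carried out on retinas from 4 groups of mice, with 5 libraries in each group and 20 in all. In the first experiment, the question was how loss of Atf6, a membrane-bound transcription factor of the unfolded protein response, changes the retina during oxygen-induced retinopathy (OIR). *Atf6*+/+ and *Atf6*-/- mice, both on a C57BL/6J background, were kept in 75% oxygen from postnatal day (P) 7 to P12, returned to room air and sampled at P17, when abnormal new vessel growth peaks. In the second experiment, wildtype mice without hyperoxia were injected in both eyes at P30 with 1 µL of 10 µM Ceapin-A7, a small molecule that keeps Atf6 in the endoplasmic reticulum, or with saline and vehicle, and were sampled 24 h later. The vehicle is given as 0.05 to 0.1% dimethyl sulfide for both groups in the sample labels, but in the methods as 0.01% dimethyl sulfoxide for Ceapin-A7 and 0.05% for saline, so a difference in vehicle and the compound cannot be told apart. The *Atf6*-/- allele is a germline knockout in every cell of the animal and not in endothelial cells alone, and Ceapin-A7 was injected into the eye without being directed to a cell type. Mice of both sexes from several litters were used. Whole retinas hold few endothelial cells, and in such bulk samples fewer endothelial cells and less RNA per endothelial cell cannot be told apart.

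ETS factors bind a GGAA core that is found in many endothelial enhancers. Erg is kept on in resting vessels, where it holds junction genes such as *Cdh5* active, Fli1 is its close relative, and Ets1 is associated with sprouting. SOXF factors act in arterial specification and lymphatic development, Sox17 mainly in arteries and Sox18 in lymphatic and growing vessels. Tal1 and Gata2 form complexes at endothelial and blood cell enhancers, whereas Klf2 and Klf4 are induced by laminar blood flow and keep endothelium quiescent.

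Promoters are shown first for *Klf4* and *Erg*, which had the smallest p-values of the 10 in OIR, and for *Klf2*, the other flow-responsive Krüppel-like factor. The table of RefSeq promoters used here (GRCm38.p6 build) matched 5 of the 10 genes, with 9 promoters in all (*Erg*, *Tal1*, *Gata2*, *Klf2* and *Klf4*). Each runs from 250 bases before a transcript start to 50 bases after it and is written 5′ to 3′ on the strand of the gene. Capitals mark 3 motifs on either strand, CACCC (the core bound by Krüppel-like factors), CCACG (the part of the endoplasmic reticulum stress element that Atf6 binds) and the MEF2 motif (CTA and TAG with 4 bases between them). The first is *Klf4* (chr4:55532426-55532725, minus strand), the second *Klf2* (chr8:72318812-72319111, plus strand) and the third the *Erg* start that lies farthest upstream (chr16:95586544-95586843, minus strand).
Klf4: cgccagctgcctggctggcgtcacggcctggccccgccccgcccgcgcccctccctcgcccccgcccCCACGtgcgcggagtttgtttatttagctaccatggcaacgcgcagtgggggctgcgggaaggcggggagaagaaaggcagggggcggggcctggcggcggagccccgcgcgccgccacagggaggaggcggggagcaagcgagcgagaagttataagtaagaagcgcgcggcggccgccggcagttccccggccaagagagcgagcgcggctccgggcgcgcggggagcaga
Klf2: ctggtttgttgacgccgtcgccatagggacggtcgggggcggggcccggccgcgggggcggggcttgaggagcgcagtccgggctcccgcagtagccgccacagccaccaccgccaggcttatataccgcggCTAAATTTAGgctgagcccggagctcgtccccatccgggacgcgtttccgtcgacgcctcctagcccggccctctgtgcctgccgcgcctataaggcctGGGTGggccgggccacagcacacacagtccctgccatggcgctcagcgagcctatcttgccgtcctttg
Erg: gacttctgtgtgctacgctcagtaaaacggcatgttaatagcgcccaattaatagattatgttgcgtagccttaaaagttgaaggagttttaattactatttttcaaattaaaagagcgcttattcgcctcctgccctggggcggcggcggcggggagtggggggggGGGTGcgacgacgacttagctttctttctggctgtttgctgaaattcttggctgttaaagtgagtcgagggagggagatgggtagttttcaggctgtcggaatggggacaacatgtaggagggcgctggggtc
The *Klf4* promoter holds CCACG at 1 place, where it overlaps the palindrome that gives 2 matches to ACGTG, the core of the hypoxia response element. CCACG is in 32.8% and ACGTG in 19.6% of all 32817 promoters of this length. The *Klf2* promoter holds the MEF2 motif, which 3.69% of promoters do, and 1 CACCC on the opposite strand, which 57.5% do. No CCACG was found in the 3 *Erg* or the 2 *Tal1* promoters, and 1 was found in each of the 2 *Gata2* promoters. The complete stress element, CCAAT and CCACG with 9 bases between them, was in none of the 9 promoters and in 0.119% of all. A match is a description of these letters only.

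*Atf6* itself was measured at 14.61 to 16.05 FPKM in *Atf6*+/+ OIR and at 13.57 to 16.83 FPKM in *Atf6*-/- OIR, and these ranges overlap. The allele carries a premature stop in exon IV, so the level of the whole transcript does not check the genotype. Depth, estimated from the steps between low values, was 21100000 to 23000000 fragments in OIR and 20200000 to 21500000 at P30, except for Ceapin-A7 replicate 3 with 13900000. Transcript of the Y-linked gene *Ddx3y* was above 1 FPKM in 2 of 5 libraries in each OIR group, in 1 of 5 saline libraries and in 3 of 5 Ceapin-A7 libraries, so the sexes are not balanced at P30. All 18 endothelial marker genes used here, among them *Pecam1*, *Cdh5* and *Cldn5*, were listed in both experiments. Across all genes, 5 of 15704 passed an adjusted p under 0.05 in OIR (0.0318%, limma with Benjamini-Hochberg adjustment), and 2002 had an unadjusted p of 0.05 or less (12.7%), the threshold used in the study. After Ceapin-A7, 0 of 15408 passed (0.00%, limma), and 1595 had an unadjusted p of 0.05 or less (10.4%).

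*Sox18* had the highest mean of the 10 genes in both OIR groups and *Klf2* in both P30 groups. In *Atf6*+/+ OIR retinas, the mean was 8.06 ± 2.18 FPKM for *Sox18* (SD, n = 5), 5.00 ± 1.25 for *Ets1* and 3.52 ± 0.786 for *Klf2*, and each of these ranges overlapped with the next. *Erg* (2.41 ± 0.542), *Fli1* (2.23 ± 0.426) and *Sox17* (2.16 ± 0.543) followed at nearly the same level and did not overlap with *Klf4* (1.23 ± 0.160). *Sox7* was at 1.10 ± 0.317, and the lowest were *Tal1* with 0.542 ± 0.147 and *Gata2* with 0.486 ± 0.119 FPKM, whose ranges overlapped. In saline-treated retinas, *Klf2* stood alone at 4.44 ± 0.839 FPKM, above every *Sox18* value (2.45 ± 0.354), and *Sox7* and *Tal1* were lowest at 0.286 ± 0.0921 and 0.244 ± 0.0680. FPKM is divided by transcript length, so levels can be set side by side between genes. At these depths, *Erg* rests on an estimated 85 to 205 fragments per OIR library but only 15 to 55 per P30 library, and *Sox7* at P30 on 9 to 24.

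**Figure D1:**
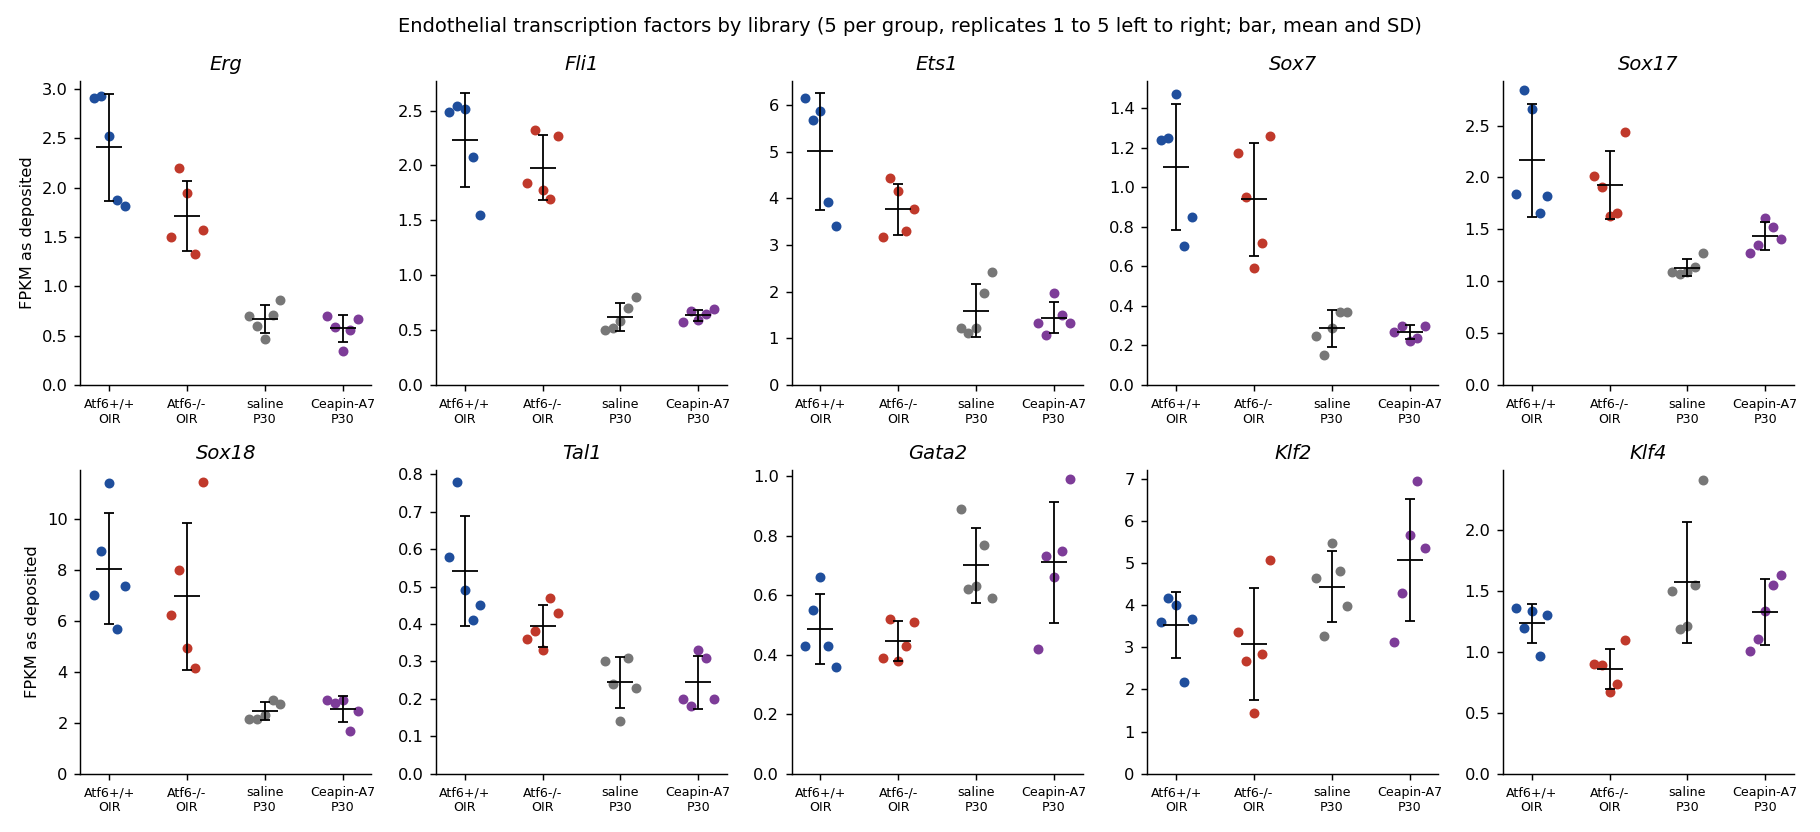
Deposited FPKM of the 10 transcription factors (y axis, linear from 0) in each library of the 4 groups (x axis), with points for replicates 1 to 5 from left to right and bars for mean and SD. *Erg*, *Fli1*, *Ets1*, *Sox7*, *Sox17* and *Sox18* are higher in all 10 OIR than in all 10 P30 libraries, while *Gata2*, *Klf2* and *Klf4* overlap.

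All 10 factors had a lower mean in *Atf6*-/- than in *Atf6*+/+ OIR retinas, whereas 49.3% of all genes tested did. The median log2 fold change of the 10 was -0.24, against 0.00283 for all genes. Fold changes of all genes followed GC content in this comparison (Spearman's rho -0.476 across genes). With a GC correction the median of the 10 was -0.194, and *Gata2* was no longer lower, at 0.0488. None passed the adjusted threshold, with adjusted p-values (limma) between 0.360 and 0.845, and for none were the groups without overlap (1.80% of all genes). The unadjusted threshold was passed by 2 of 10, *Klf4* and *Erg*, both lower, where 5.81% of all genes were lower. The 10 genes are not independent of each other, as their levels varied together among retinas. They were also chosen with earlier results of these data known, so the count of lower genes is no independent test. Values were rescaled by median-of-ratios factors, and 0.1 FPKM was added before taking log2, which understates the changes of the lowest genes.

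Of the ETS factors, *Erg*, which maintains endothelial junctions, was measured at 2.91, 2.93, 2.52, 1.88 and 1.81 FPKM in *Atf6*+/+ replicates 1 to 5. In *Atf6*-/- replicates 1 to 5 it was 1.50, 2.2, 1.95, 1.33 and 1.57 FPKM. The first 3 *Atf6*+/+ libraries were above all *Atf6*-/- libraries, 3 *Atf6*-/- libraries were below every *Atf6*+/+ library, and the groups overlapped in between. *Erg* thus had a log2 fold change of -0.45 ± 0.17 (SE), with an unadjusted p of 0.0227 and an adjusted p of 0.362 by limma. The exact two-sided permutation test gave p = 0.0556, so the 2 tests lie on either side of 0.05. Leaving out *Atf6*+/+ replicate 1, *Atf6*+/+ replicate 2, *Atf6*-/- replicate 1 or *Atf6*-/- replicate 4 also moved the limma p of *Erg* above 0.05, to 0.0589, 0.0611, 0.0508 and 0.0614.

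*Ets1*, the most abundant of the 3 ETS factors, followed the same libraries. Its level was 6.15, 5.67, 5.86, 3.93 and 3.40 FPKM in *Atf6*+/+ OIR and 3.16, 4.44, 4.16, 3.29 and 3.76 FPKM in *Atf6*-/- OIR. Again *Atf6*+/+ replicates 1 to 3 were high and replicates 4 and 5 lay within the range of the *Atf6*-/- group. This gave a log2 fold change of -0.36 ± 0.17 (SE; limma unadjusted p = 0.0549, adjusted p = 0.396). *Fli1*, which binds the same sites as Erg, was 1.55 to 2.54 FPKM in *Atf6*+/+ and 1.69 to 2.32 FPKM in *Atf6*-/- retinas, and its log2 fold change of -0.14 had a 95% confidence interval of -0.47 to 0.19. *Erg* made up 23.1 to 26.8% of the summed FPKM of the 3 ETS factors in *Atf6*+/+ OIR and 20.7 to 24.7% in *Atf6*-/- OIR, so these shares overlapped. *Fli1* and *Ets1* are neighbouring protein-coding genes on chromosome 9, and *Erg* lies next to the ETS gene *Ets2* on chromosome 16 in the RefSeq annotation.

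The SOXF factors differed less between the genotypes than among retinas of the same genotype. *Sox18* was 7.01, 8.77, 11.42, 5.69 and 7.39 FPKM in *Atf6*+/+ OIR and 6.24, 8.02, 4.94, 4.17 and 11.46 FPKM in *Atf6*-/- OIR. The highest single value of *Sox18* was thus in an *Atf6*-/- library, replicate 5. Its log2 fold change was -0.24 ± 0.26 (SE; limma adjusted p = 0.661), and -0.462 without *Atf6*-/- replicate 5 (limma unadjusted p = 0.0504) but -0.0787 without *Atf6*-/- replicate 4. With a GC correction the change of *Sox18* was -0.0920. *Sox7*, which acts with Sox17 and Sox18 in vessel formation, ranged from 0.70 to 1.47 and from 0.59 to 1.26 FPKM, and *Sox17*, the arterial factor, from 1.66 to 2.84 and from 1.63 to 2.44 FPKM. Their log2 fold changes were -0.20 and -0.12, with limma adjusted p-values of 0.695 and 0.738. When single libraries were left out, they ranged from -0.346 (without *Atf6*+/+ replicate 4) to -0.0574 (without *Atf6*-/- replicate 3) for *Sox7*, and from -0.226 (without *Atf6*-/- replicate 5) to -0.0184 (without *Atf6*+/+ replicate 2) for *Sox17*. The confidence interval for *Sox18* ran from -0.82 to 0.33 and that for *Sox17* from -0.50 to 0.26, so reductions of such a size are not excluded by these libraries.

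*Tal1*, a basic helix-loop-helix factor of blood and endothelium, was 0.58, 0.78, 0.49, 0.41 and 0.45 FPKM in *Atf6*+/+ OIR and 0.36, 0.38, 0.33, 0.47 and 0.43 FPKM in *Atf6*-/- OIR. The lowest 3 of the *Atf6*-/- libraries lay below the *Atf6*+/+ group. The log2 fold change of -0.34 ± 0.18 (SE) had a limma unadjusted p of 0.0736 and an adjusted p of 0.417, while the exact permutation p was 0.0476. Its values rest on an estimated 29 to 72 fragments per library. *Gata2*, a zinc finger factor that is also made in neurons and blood precursors, was 0.36 to 0.66 and 0.38 to 0.52 FPKM in the 2 groups, with a log2 fold change of -0.07. This direction turned to 0.0488 after correction for GC content. Erythroid markers, genes of red blood cells, were lower in *Atf6*-/- retinas for 6 of 6 genes tested, 0 of them past the unadjusted limma threshold, and their summed level spanned 380 to 2510 FPKM in *Atf6*+/+ and 407 to 1360 FPKM in *Atf6*-/- retinas. Their part in the level of *Tal1* was not tested.

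*Klf4* had the smallest p-value of the 10. It was 1.36, 1.2, 1.34, 0.97 and 1.30 FPKM in *Atf6*+/+ OIR and 0.90, 0.89, 0.67, 0.74 and 1.10 FPKM in *Atf6*-/- OIR. Only *Atf6*-/- replicate 5 reached into the *Atf6*+/+ range, and the other 4 lay below all 5 *Atf6*+/+ libraries. The mean difference on the log2 scale was -0.47 ± 0.16 (SE), a ratio of 0.724, with a limma unadjusted p of 0.0112, an adjusted p of 0.360 and an exact permutation p of 0.0159. In contrast to *Erg*, the limma p of *Klf4* stayed between 0.00235 and 0.0317 when each library was left out in turn. *Klf4* ranked 483 of 15704 genes by p.

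*Klf2* was more variable than *Klf4*. Its level was 3.60, 4.16, 4.01, 2.18 and 3.67 FPKM in *Atf6*+/+ and 3.37, 2.67, 1.43, 2.85 and 5.07 FPKM in *Atf6*-/- OIR. The highest and the lowest value of *Klf2* were both in the *Atf6*-/- group, in replicates 5 and 3. The log2 fold change was -0.25 ± 0.29 (SE; limma adjusted p = 0.687). It moved to -0.00256 without *Atf6*-/- replicate 3 and to -0.466 without *Atf6*-/- replicate 5, and was -0.648 with array weights and -0.0890 with a GC correction.

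**Figure D2:**
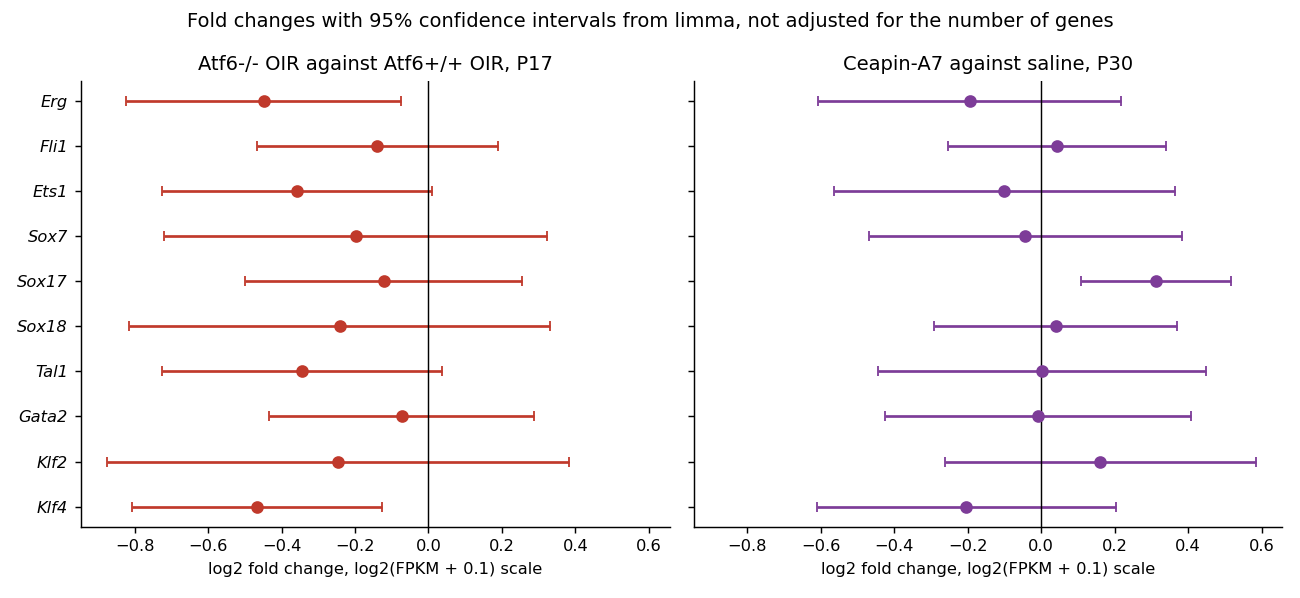
Log2 fold change (x axis, log2(FPKM + 0.1) scale) of each transcription factor (y axis) with its 95% confidence interval from limma, for *Atf6*-/- against *Atf6*+/+ OIR on the left and Ceapin-A7 against saline on the right, 5 libraries per group. On the left all 10 points are below 0 and only the intervals of *Erg* and *Klf4* do not reach 0, and on the right only that of *Sox17* does not.

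Endothelial markers were lower in the same comparison. Of 18 markers, 14 were lower in *Atf6*-/- OIR retinas, 5 of them past the unadjusted limma threshold, and their median log2 fold change was -0.25. Their summed level was 187 to 270 FPKM in *Atf6*+/+ and 168 to 234 FPKM in *Atf6*-/- libraries. The mean over the markers differed by -0.25 on the log2 scale (exact permutation p = 0.127). Relative to this mean, *Fli1*, *Sox7*, *Sox17*, *Sox18*, *Gata2* and *Klf2* differed by 0.000539 (*Klf2*) to 0.17 (*Gata2*) between *Atf6*-/- and *Atf6*+/+ retinas. For *Klf4* this difference was -0.22 (exact permutation p = 0.111) and for *Erg* -0.20 (exact permutation p = 0.143). For none of the 10 was the exact permutation p of this difference under 0.05. The GC correction, which moved the median of the 10 factors in OIR to -0.194, was not applied to the markers, their mean or the other gene lists.

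Mural cell markers, of the pericytes and smooth muscle that surround the vessels, were lower for 9 of 9 genes, 5 past the unadjusted limma threshold, and their summed level was 104 to 155 FPKM in *Atf6*+/+ and 84.8 to 108 FPKM in *Atf6*-/- OIR. Of 11 lens genes tested, 10 were lower and 8 of these past that threshold, with a summed level of 66.6 to 600 FPKM against 69.5 to 89.5 FPKM. Of 8 pigment epithelium genes 7 were higher, 4 at that threshold, with 191 to 307 FPKM against 254 to 471 FPKM. None of these lists had a gene at 0 in all libraries of a group, and the part of these tissues in the levels of the transcription factors was not tested.

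Genes known to be controlled by these factors in endothelium were lower for 23 of 26 tested, with a median log2 fold change of -0.30, and 4 were lower past the unadjusted limma threshold, with 0 at the adjusted threshold. Among them were *Robo4*, a guidance receptor under ETS control, at -0.69 ± 0.23 (6.55 to 4.05 FPKM), *Unc5b*, a netrin receptor of tip cells, at -0.54 ± 0.21, and *Egfl7*, a secreted protein of endothelium whose host gene carries miR-126, at -0.31 ± 0.12 (SE). Of the 27 genes of this list, 11 are in the endothelial marker list as well, *Robo4* and *Egfl7* included. Of 39 other transcription factors with known roles in endothelium, 32 were lower, but only 1 past the unadjusted threshold, and 4 were higher past it. The 41 factors of this list summed to 520 to 614 FPKM in *Atf6*+/+ OIR, against 187 to 270 FPKM for the 18 endothelial markers. Which cells of the retina made them was not tested. *Elk4*, a serum response co-factor of the ETS family, was higher by 0.47 ± 0.12, *Hif1a*, the hypoxia-inducible factor, by 0.18 ± 0.06 and *Mef2a*, which can activate *Klf2* and *Klf4*, by 0.16 ± 0.06 (SE; limma adjusted p = 0.358, 0.358 and 0.361). Of 18 further members of the ETS, SOX and Krüppel-like families, *Klf15* was higher by 0.38 ± 0.11 (SE; adjusted p = 0.358 by limma) and no other passed the unadjusted threshold.

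After Ceapin-A7, 5 of the 10 factors had a higher and 5 a lower mean, and 49.7% of all genes were lower. The median log2 fold change was -0.00303. *Sox17* was the only factor past the unadjusted threshold, where 5.04% of all genes were higher and 5.31% lower, and its 2 groups did not overlap after rescaling, as for 1.47% of all genes.

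*Sox17* was 1.09, 1.07, 1.09, 1.14 and 1.27 FPKM in saline-treated replicates 1 to 5. In Ceapin-A7-treated replicates 1 to 5 it was 1.27, 1.35, 1.61, 1.52 and 1.41 FPKM. The groups touched at 1.27 in the deposited values, and the other 4 Ceapin-A7 libraries were above every saline library. *Sox17* had a log2 fold change of 0.31 ± 0.09 (SE), a ratio of 1.24, with a limma unadjusted p of 0.00605 and an adjusted p of 0.472. The exact permutation p of 0.00794 is the smallest that 5 against 5 libraries can give. In each fit that left out a library the change stayed between 0.27 and 0.35, with unadjusted limma p-values between 0.00427 and 0.0170. The library at 1.27 FPKM in the saline group was the saline library with *Ddx3y* transcript. Among libraries without it, the 4 saline values were 1.07 to 1.14 FPKM and the 2 Ceapin-A7 values 1.41 and 1.52 FPKM, and with *Ddx3y* as a covariate the log2 fold change was 0.30 (limma unadjusted p = 0.0173).

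*Sox17* was next set against the endothelial markers, which reuses its values and gives no separate support. The mean over the 18 endothelial markers differed by -0.05 between the groups (exact permutation p = 0.492), and 12 of 18 markers were lower. *Sox17* minus that mean was higher by 0.36 on the log2 scale after Ceapin-A7 (exact permutation p = 0.00794), with SDs of 0.0342 among Ceapin-A7 and 0.0966 among saline libraries and no overlap. This p is not adjusted for the number of factors tested. Its share of the summed FPKM of the 3 SOXF factors was 29.5 ± 2.35% in saline and 34.2 ± 5.96% in Ceapin-A7-treated retinas (SD, n = 5), and the ranges of 25.9 to 31.8% and 28.6 to 44.1% overlapped. Of the marker lists, mural cell genes were higher for 7 of 9, 1 past the unadjusted limma threshold, with a summed level of 30.5 to 42.6 FPKM in saline and 35.4 to 85.4 FPKM in Ceapin-A7-treated retinas. The 12 lens genes were higher for 12 of 12 with 0 at that threshold, with summed levels of 71.4 to 6420 FPKM and 149 to 10700 FPKM. Their part in the level of *Sox17* was not tested.

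For the other SOXF factors, the 2 groups overlapped. *Sox18* was 2.14, 2.14, 2.31, 2.89 and 2.76 FPKM in saline and 2.90, 2.77, 2.91, 1.69 and 2.45 FPKM in Ceapin-A7-treated retinas, and *Sox7* 0.15 to 0.37 and 0.22 to 0.30 FPKM. Both the lowest and the highest *Sox18* value were in the Ceapin-A7 group. Their log2 fold changes of 0.04 and -0.04 had 95% confidence intervals of -0.29 to 0.37 and -0.47 to 0.38, and both changed sign when single libraries were left out. Both intervals include the change of 0.31 of *Sox17* as well as 0, and whether the SOXF factors differ in their change was not tested.

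*Erg* and *Klf4*, the 2 factors with the smallest p in OIR, had log2 fold changes of -0.19 ± 0.19 and -0.20 ± 0.19 (SE) after Ceapin-A7, with limma adjusted p-values of 0.702 and 0.682. *Erg* was 0.70, 0.60, 0.47, 0.71 and 0.86 FPKM in saline and 0.70, 0.59, 0.35, 0.56 and 0.67 FPKM in Ceapin-A7-treated retinas. The lowest of these was the library with the fewest fragments, Ceapin-A7 replicate 3, without which the log2 fold change of *Erg* was -0.0554. *Klf4* was 1.50, 1.19, 1.21, 1.55 and 2.41 FPKM in saline and 1.01, 1.11, 1.34, 1.55 and 1.63 FPKM in Ceapin-A7-treated retinas, and 2 Ceapin-A7 libraries lay below the saline group. Without saline replicate 5, the highest library, the log2 fold change of *Klf4* was -0.0526. The intervals of -0.61 to 0.22 for *Erg* and -0.61 to 0.20 for *Klf4* include the change seen in OIR as well as 0. Whether the effects of the 2 experiments differ was not tested, because age, oxygen and injection differ with them.

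*Klf2* was 4.65, 3.28, 5.47, 4.82 and 3.97 FPKM in saline and 3.12, 4.29, 5.67, 6.94 and 5.35 FPKM in Ceapin-A7-treated retinas (log2 fold change 0.16 ± 0.19, SE, limma adjusted p = 0.759). Ceapin-A7 replicate 1 was below and replicates 3 and 4 above the saline range. *Fli1*, *Ets1*, *Tal1* and *Gata2* differed by 0.04, -0.10, 0.00190 and -0.00796 on the log2 scale, with limma adjusted p-values of 0.871 to 0.990 for *Ets1*, *Fli1* and *Gata2* and 0.997 for *Tal1*. Immediate early genes were lower for 13 of 14, 8 of them past the unadjusted limma threshold, with a summed level of 190 to 347 FPKM in saline and 166 to 208 FPKM in Ceapin-A7-treated retinas. *Fos* was at -0.63 ± 0.17 and *Fosb* at -0.82 ± 0.27 (SE).

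Among the known targets of these factors, 16 of 25 were lower after Ceapin-A7, with 1 lower and 1 higher past the unadjusted limma threshold. *Egfl7* was higher by 0.24 ± 0.08 and *Unc5b* was lower, at -0.38 ± 0.17 (SE; limma adjusted p = 0.472 and 0.475). Of 37 other transcription factors with known roles in endothelium, 3 were lower past that threshold and 0 higher. These were *Mef2d* at -0.20, *Smad1*, which relays bone morphogenetic protein signals, at -0.15 and *Hey2*, a Notch target of arteries, at -0.26. Of 19 family relatives, *Sox2* was lower, at -0.31, as was *Klf3* at -0.17, and no other passed the unadjusted threshold.

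The 10 factors varied together among OIR retinas of the same genotype. After removing group means, the Pearson correlation was above 0 for all 45 pairs over the 10 OIR libraries, with a median of 0.593, and for 33 of 45 pairs over the 10 P30 libraries, with a median of 0.260. All points share libraries and their scaling, and P30 levels rest on fewer fragments. The share above 0 among pairs of other genes was not computed, so these counts have no background. *Erg* and *Ets1* were closest in OIR (r = 0.923, permutation p = 0.00139, adjusted over the 45 pairs 0.0240, and Spearman's rho = 0.855, permutation p = 0.00410, adjusted 0.0766), and r was 0.884 without the 2 libraries farthest from the median of *Erg*. *Klf2* and *Klf4* followed (r = 0.901, permutation p = 0.00569, adjusted 0.0427, and rho = 0.661, permutation p = 0.0515, adjusted 0.170), with r = 0.776 without the 2 libraries farthest from the median of *Klf2*. *Sox7* came next, with *Klf4* (r = 0.861, adjusted permutation p = 0.0312) and with *Klf2* (r = 0.855, adjusted permutation p = 0.0240). For both of these pairs the adjusted permutation p of rho was 0.0766. *Sox17* and *Sox18* had r = 0.843 (permutation p = 0.00160, adjusted 0.0240, rho = 0.818, permutation p = 0.00840, adjusted 0.0766, and r = 0.847 without 2 libraries). In OIR, 11 of 45 pairs had an adjusted permutation p under 0.05 for Pearson's r and 0 for Spearman's rho, and at P30 there was none for either. *Erg* and *Klf2* were the least alike in OIR, with r = 0.0495. At P30, r was 0.0196 for *Erg* with *Ets1*, 0.332 for *Klf2* with *Klf4* and -0.0649 for *Sox17* with *Sox18*. *Sox7* had r = 0.432 with *Klf4* and 0.115 with *Klf2* at P30.

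**Figure D3:**
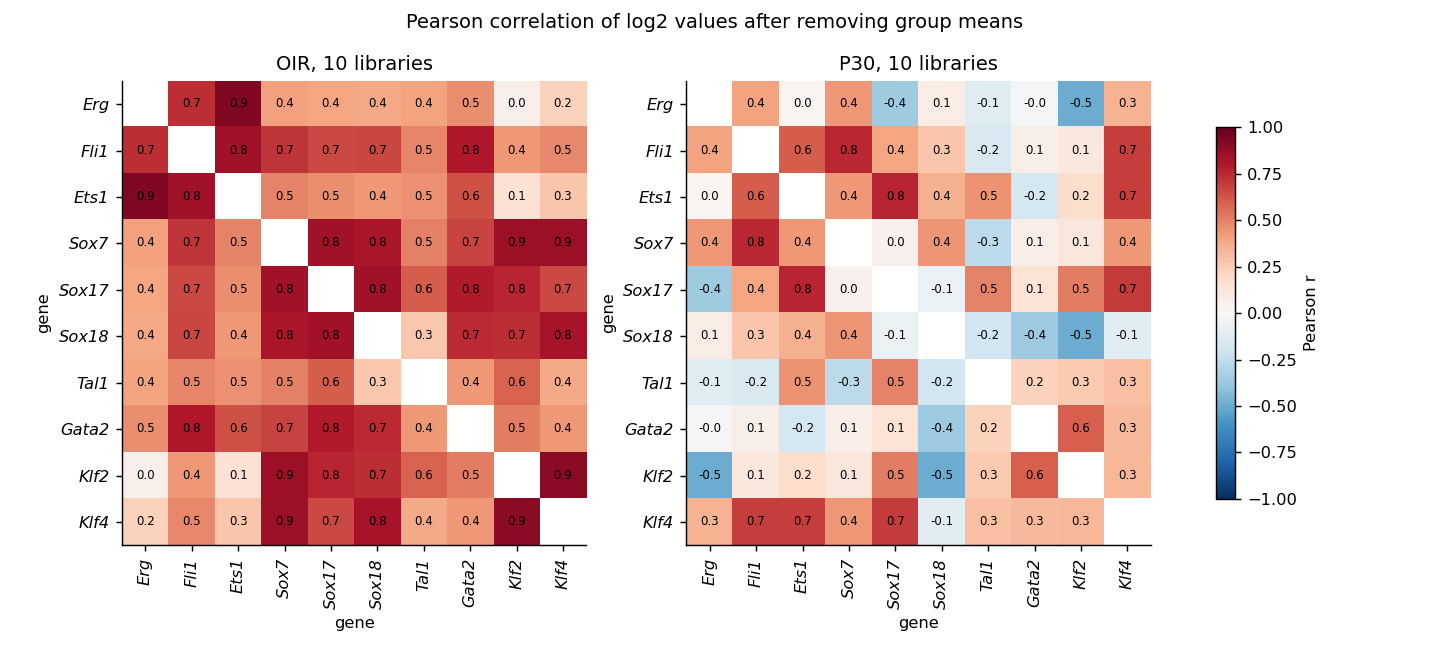
Pearson correlation between each pair of transcription factors (both axes) over the 10 OIR libraries on the left and the 10 P30 libraries on the right, after removing group means, with red for positive and blue for negative values. All pairs are above 0 in OIR, highest for *Erg* with *Ets1* (0.923) and *Klf2* with *Klf4* (0.901), while at P30 12 of 45 are below 0.

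In OIR, the correlation of each factor with the mean of the 18 endothelial markers was also above 0, with r from 0.581 for *Tal1* to 0.833 for *Fli1* over 10 libraries. How often other genes correlate with the markers to this degree was not computed. The permutation p, adjusted over the 10 factors, was under 0.05 for 8 of them by Pearson's r, all but *Tal1* and *Klf2*. For *Fli1* it was 0.0344 (rho = 0.842, adjusted 0.0262, r = 0.899 without the 2 libraries farthest from the marker median). At P30, r ran from -0.172 for *Erg* to 0.847 for *Tal1*, with none of the 10 adjusted permutation p-values under 0.05 by Pearson's r and 2 by Spearman's rho (*Tal1* and *Sox17*, both 0.0458), against 3 of 10 by rho in OIR. Without the 2 libraries farthest from the marker median, r in OIR fell from 0.601 to 0.218 for *Klf2*, from 0.693 to 0.347 for *Klf4* and from 0.581 to 0.365 for *Tal1*. It was 0.576 to 0.899 for the other 7, with falls from 0.765 to 0.576 for *Sox7* and from 0.797 to 0.640 for *Sox17*. Leaving out the farthest libraries narrows the range of the markers, which can by itself lower r, so these values do not sort the factors. Over all 20 libraries, r with the endothelial marker mean ran from 0.427 (*Erg*) to 0.786 (*Sox17*). It ran from 0.0519 (*Gata2*) to 0.612 (*Ets1*) for immediate early genes and from -0.0519 (*Erg*) to 0.578 (*Tal1*) for mural genes. For microglia and macrophage genes it ran from -0.340 (*Sox18*) to 0.431 (*Gata2*), and for pigment epithelium genes from -0.582 (*Fli1*) to -0.0689 (*Gata2*). *Klf4* had 0.586 with immediate early genes and 0.576 with endothelial markers. By the same measure, the genes most alike to each factor were sought among 12567 genes with a mean of at least 1 FPKM, for the 5 factors that reach this level in both experiments. *Nrp1*, a co-receptor for vascular endothelial growth factor, was the closest to *Ets1* (r = 0.833), *Ly6e* to *Sox17* (0.889), *Lsr*, a tricellular junction protein, to *Sox18* (0.884), *Spns1* to *Klf2* (0.862) and *Acvr1*, a bone morphogenetic protein receptor, to *Klf4* (0.851). The next 2 were *Phf10* (0.829) and *Clic4* (0.828) for *Ets1*, and *Rflnb* (0.877) and *Tril* (0.868) for *Sox17*. For *Sox18* they were *Smarcd3* (0.851) and *4833439L19Rik* (0.841), and for *Klf4* *Map3k5* (0.850) and *Trim32* (0.832). For *Klf2* they were *Nos3* (0.840), endothelial nitric oxide synthase and a known target of Klf2, and *Cog1* (0.838). These are among the highest of 12567 values each and carry no p.

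The ETS and SOXF factors and *Tal1* were higher in P17 *Atf6*+/+ OIR than in P30 saline-treated retinas, without overlap between these 2 groups. P17 *Atf6*+/+ OIR retinas held 3.61 times the *Erg*, 3.60 times the *Fli1* and 3.15 times the *Ets1* of P30 saline-treated retinas, and 3.85, 3.29 and 1.91 times the *Sox7*, *Sox18* and *Sox17*. For these 6 genes, all 10 OIR libraries were above all 10 P30 libraries, as was the case for 13.2% of all genes, while 14.8% lay below and 28.0% did not overlap in either direction. *Tal1* had a ratio of 2.22, but its levels overlapped over all 20 libraries. *Gata2*, *Klf2* and *Klf4* were instead lower in OIR by ratios of 0.694, 0.794 and 0.785, with overlapping groups. The 18 endothelial markers had a median ratio of 2.34, from 0.313 for *Slco1a4*, a transporter of the mature blood-retina barrier, to 9.48 for *Ecscr*, and 16 were above 1, while the median of all genes was 1.01. Age, hyperoxia and injection differ together between these groups and cannot be told apart, and FPKM were computed in each library alone.

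**Figure D4:**
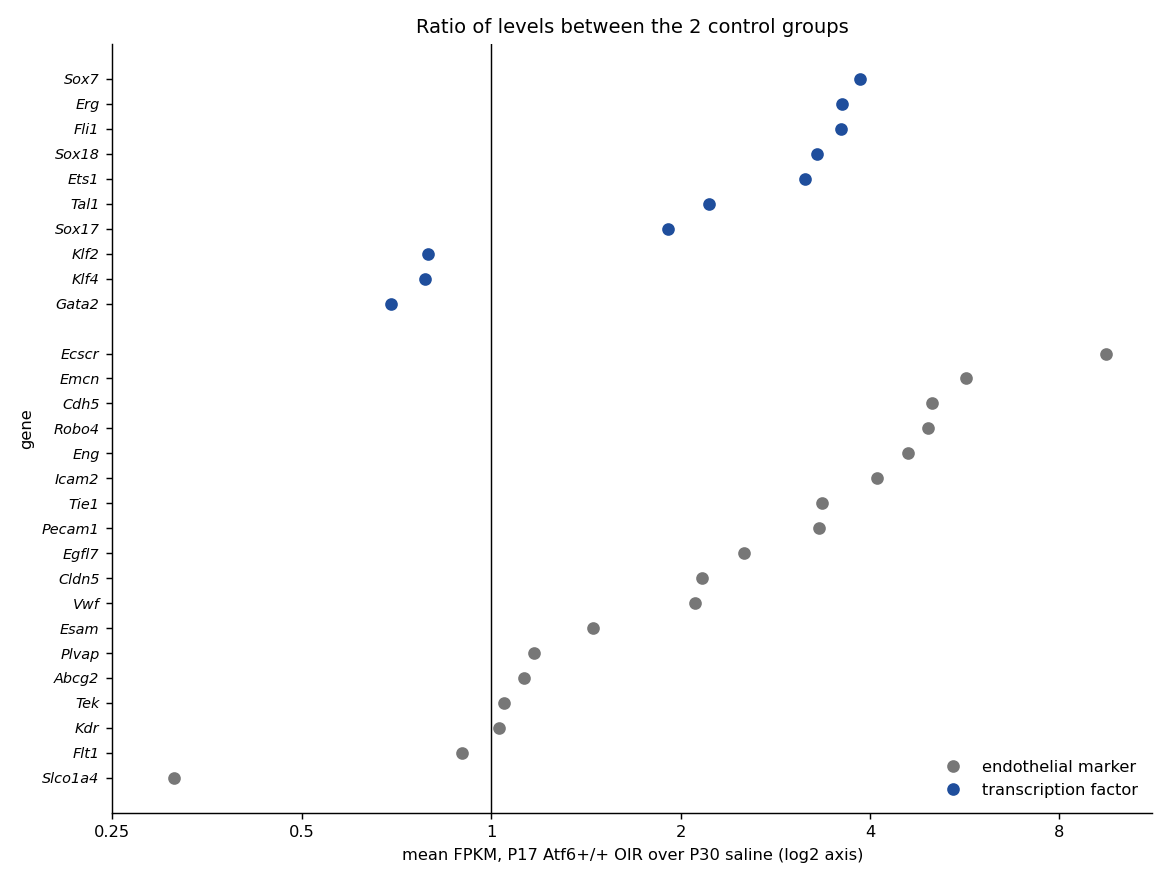
Ratio of mean FPKM in P17 *Atf6*+/+ OIR over P30 saline-treated retinas (x axis, log2 scale, 5 libraries per group) for the 10 transcription factors in blue and the 18 endothelial markers in grey (y axis). *Sox7*, *Erg*, *Fli1*, *Sox18* and *Ets1* lie at 3.15 or above, and *Klf2*, *Klf4* and *Gata2* below 1.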

How the data were processed

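The 20 bulk RNA-Seq libraries were assigned to groups by their sample labels. The authors prepared stranded mRNA libraries (DNBSEQ, paired-end reads of 100 bp), used HISAT2 (v2.0.4) for alignment to GRCm39, RSEM (v1.2.18) for FPKM and compared groups with DESeq2 (v1.4.5). The deposited values are FPKM per gene to 2 decimals, so no count model was used here and no counting interval was computed. Values were divided by median-of-ratios factors, 0.1 was added, and log2 values of genes with a mean above 0.1 FPKM were compared within each experiment by limma (3.58.1, trended eBayes, R 4.3.3), adjusted over all genes. On simulated data, 88.5% of 200 genes changed 2-fold were called in the OIR design and 85.5% of 195 in the Ceapin-A7 design. False calls numbered 11 and 8. The largest log2 fold changes of the transcription factors were smaller than 2-fold, at -0.466 (*Klf4*, OIR) and 0.313 (*Sox17*, Ceapin-A7). Recovery of changes of that size was not simulated, so these shares do not give the power for the factors. Fragments were estimated from the steps between low values, with an assumed fragment length of 200 bases. Where the labels do not say that libraries came from separate mice or litters, p-values measure only the spread between libraries.

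The 10 factors and all gene lists were chosen with earlier results of these data known, and the lists were written from general knowledge. Genes named besides the 10 were taken from the 3 smallest p-values in each list or comparison, or from the 3 genes most correlated with a factor. Correlations were tested by exact enumeration of library orders within groups. Promoters are from RefSeq (GRCm38.p6), since coordinates of the authors' build were not used here. Alternatives were other pseudocounts, filters, scalings, variance models, a fit of all libraries, GC correction, the replicate number as a block and leaving out each library, and *Ddx3y* as a covariate was added after seeing the data.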

Additional observations from a re-analysis of the deposited data

Results flagged for a closer look

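In *Atf6*+/+ OIR retinas, *Klf2* was far lower in replicate 4 than in the other 4 libraries, at 2.18 FPKM against 3.60, 4.16, 4.01 and 3.67 FPKM. The gap to the nearest library was 0.717 of the range of the group, against a limit of 0.71 for 5 libraries. Each of the 10 factors was checked in each of the 4 groups, and this was 1 of 40 such checks, of which chance passes about 1 in 20. The same library had the lowest endothelial marker mean of its group, at -0.36 on the log2 scale from the group mean, and the lowest *Sox7*, *Sox17*, *Sox18*, *Tal1* and *Klf4*. Without it, the log2 fold change of *Klf2* in OIR was -0.42 in place of -0.25, whereas without *Atf6*-/- replicate 3, which had the lowest value of both groups, it was -0.00256.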

How the results depend on the processing

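In OIR, the median log2 fold change of the 10 factors was between -0.448 and -0.156 under 16 alternatives, and between -0.393 (without *Atf6*+/+ replicate 4) and -0.119 (without *Atf6*-/- replicate 3) when a library was left out. The number of the 10 at an unadjusted p of 0.05 or less was 2, and 1 to 4 when a library was left out: 4 without *Atf6*+/+ replicate 4 (*Erg*, *Ets1*, *Tal1* and *Klf4*), and *Klf4* alone without *Atf6*+/+ replicate 1 or 2 or *Atf6*-/- replicate 1 or 4. Among all genes, 3762 were at that threshold without *Atf6*+/+ replicate 4, against 2002 with all libraries. They numbered 1301 and 1452 without *Atf6*+/+ replicates 1 and 2, and 1346 and 1092 without *Atf6*-/- replicates 1 and 4. With array weights 6 of the 10 factors passed it, 1 of them at an adjusted p under 0.05 (*Klf4*, log2 fold change -0.637, limma adjusted p = 0.0249), and 2769 genes were called and 5749 had an unadjusted p of 0.05 or less. The number of genes called was 5 in the analysis as reported, 9 with no filter and 8 with the GC correction. It was 11 in a fit of all 20 libraries, and 5 to 9 when a library was left out. Genes at an unadjusted p of 0.05 or less then numbered 1092 to 4011. The exact permutation test called 0, where limma called 5. Its smallest possible p of 0.00794 cannot pass the adjustment unless far more genes reach it, so this 0 is no result about the genes. After Ceapin-A7 the fit of all 20 libraries called 1 gene, and 956 to 2529 genes had an unadjusted p of 0.05 or less when a library was left out. *Sox17* was the 1 factor at that threshold under every alternative. Of genes at the unadjusted threshold, 54.4% were higher in OIR, against 30.5% for FPKM as deposited, 31.0% for TPM and 58.8% for quantile normalization, and 48.7%, 57.4%, 26.8% and 46.8% after Ceapin-A7. All 10 factors were lower in OIR under each of these 4 scalings.

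Small changes turned direction. *Gata2* in OIR was 0.0488 with the GC correction, alone or with the replicate block, and ranged from -0.148 to 0.0232 when a library was left out. After Ceapin-A7, *Tal1* was -4.01e-05 with a pseudocount of 1, -0.0259 with TPM, -0.0312 with quantile normalization and -0.0137 with array weights, *Gata2* was 0.00283 with a pseudocount of 1, 0.0124 with array weights and 0.0172 with the GC correction, alone or with the replicate block, and *Sox7* was 0.00554 with array weights. With *Ddx3y* as a covariate *Sox18* was -0.108 and *Gata2* 0.148. When a library was left out, the values ranged from -0.0162 to 0.122 for *Fli1*, -0.214 to 0.0509 for *Ets1*, -0.187 to 0.0320 for *Sox7*, -0.0165 to 0.178 for *Sox18*, -0.120 to 0.0690 for *Tal1* and -0.124 to 0.139 for *Gata2*. Without a change of direction, *Klf2* and *Klf4* ranged from 0.0421 to 0.316 and from -0.280 to -0.0526, and *Erg* from -0.294 to -0.0554. In OIR, *Sox18* was -0.570 with array weights and -0.0920 with the GC correction, and *Fli1* ranged from -0.251 to -0.0825 and *Tal1* from -0.430 to -0.221 when a library was left out. The cause was not tested.

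Replicate numbers are shared between groups, but libraries of the same number did not deviate together, with correlations of -0.258 to 0.210 in OIR and -0.217 to 0.310 at P30, and 0 of 5 and 1 of 5 libraries correlated best with their own number. With the replicate block, 5 genes and 3 of the 10 factors (*Erg*, *Ets1* and *Klf4*, unadjusted p) were called in OIR, and 0 genes and 1 factor after Ceapin-A7. At the unadjusted threshold of the factors were 1969 of 15704 genes in OIR and 1606 of 15408 genes after Ceapin-A7. The log2 fold change of all genes followed GC content in OIR (Spearman's rho -0.476 across genes, which are not independent replicates). Values with 2 decimals and few fragments limit *Tal1*, *Gata2* and *Sox7*.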

Other observations

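Microglia and macrophage markers were lower in *Atf6*-/- OIR retinas for 10 of 12 genes, 2 at an unadjusted limma p of 0.05 or less, and higher after Ceapin-A7 for 7 of 12, 1 at that threshold. The summed level of these markers was 96.4 to 140 FPKM in *Atf6*+/+ OIR, 82.6 to 115 in *Atf6*-/- OIR, 49.2 to 63.8 in saline and 48.8 to 70.5 FPKM in Ceapin-A7-treated retinas. Rod markers were higher for 8 of 8 genes in both comparisons, 2 at an unadjusted p of 0.05 or less in OIR and 1 after Ceapin-A7. Of 6 astrocyte and Müller glia markers, 3 were higher and 3 lower in OIR with 0 at that threshold. After Ceapin-A7 3 were again higher and 3 lower, and at that threshold were 1 of the lower genes (*Gfap*, -0.79 ± 0.29) and 1 of the higher genes (*Glul*, 0.85 ± 0.32, SE). Of 8 pigment epithelium genes after Ceapin-A7, 4 were lower and 4 higher, 2 in each direction at that threshold, and of 6 erythroid genes tested 5 were lower and 0 passed. Of 14 immediate early genes in OIR, 12 were lower, 1 at that threshold (*Jun*, -0.43 ± 0.16). No gene of these lists passed the adjusted threshold by limma.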
